A study of Mus musculus with 11 samples.

Results

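The 8 genes studied here are used as general markers of stem and progenitor cells and were followed across otospheres (OS), cochlear sensory epithelia (CSE) and embryonic stem cells (ESCs) of the mouse: Nes, Msi1, Msi2, Abcg2, Prom1, Bmi1, Ly6a and Cd24a. They were chosen by name, and all probes whose RefSeq accession belonged to one of these symbols were taken. All 8 genes had a probe, with 12 probes among the 55681 of the array, and all 12 were among the 47996 probes kept after dim ones had been removed. Msi1, Msi2, Prom1 and Bmi1 had 2 probes each and the other genes had 1, and the brightest probe of a gene is its main probe. Otospheres are floating clusters of cells that grow from dissociated inner ear tissue. Here they came from CSE of ICR mice aged 1 day (the organ left after the spiral ligament and stria vascularis had been taken off, 20 cochleae to a preparation) and had been grown in medium with bFGF and IGF1, dissociated with trypsin and regrown, and were at passage 1. Culture lasted 4 or 5 days before the passage and again after it. The regrown spheres were filtered by size before RNA isolation to keep the solid ones and remove hollow ones. The CSE samples were the same organ from mice of the same strain and age, uncultured, and pool many animals and every cell type that stays with the epithelium. The ESCs were grown on gelatin without feeder cells, in serum with LIF, to passage 13, and were the lines G4-2 (ES1) and D3 (ES2), so that each line is a single array.

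Stem and progenitor cells keep the capacity to divide and to give rise to more specialised cells, and no single gene marks them in every tissue. The 8 genes do different jobs. Nes encodes nestin, an intermediate filament of dividing neural and muscle precursors. Msi1 and Msi2 encode the Musashi proteins, which bind mRNA and hold back its translation in neural and blood precursors. Abcg2 encodes the pump that excludes dyes from side population cells, and Prom1 encodes prominin 1 (CD133), a protein of membrane protrusions. Bmi1 encodes a subunit of the polycomb repressive complex 1, which keeps genes silent and lets precursors go on dividing, in part by silencing the Ink4 and Arf locus. Ly6a (Sca-1) and Cd24a encode small proteins anchored in the outer membrane that are used to sort blood and epithelial precursors. In the inner ear nestin has been used as a marker of cells that form spheres.

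Of 11 arrays, 6 were labelled OS, 3 CSE and 2 ESC. The arrays lay on 2 slides by their file headers, ES1, OS1 to OS3, CSE1 and CSE2 on slide 1 and ES2, OS4 to OS6 and CSE3 on slide 2. OS1 and OS2 differed by less than the noise between spots of the same probe (0.885 times it among bright probes), as did OS4 and OS5 (0.389 times), and each pair was averaged and counted as 1 sample, whereas all other pairs of a group differed by at least 1.68 times the noise. This left 4 otosphere, 3 CSE and 2 ESC samples. The study speaks of experimental batches of otospheres and of technical duplicates, without saying which of these arrays are which. The p-values therefore measure only the spread between these samples, which may in part be technical. The scanner flagged 55.1% to 71.6% of the spots of an array as well above background and none as saturated. Marker genes of the cell types mostly bore out the labels. Of 10 ESC markers, 9 were lower in otospheres and 9 in CSE than in ESCs, and in each case 1 was higher at an unadjusted p under 0.05 (limma). That marker was Nanog in both cases, which the study lists among the genes high in ESCs. Its probe here gave 8.56 and 8.31 in ESCs, 8.89 to 10.84 in otospheres and 9.48 to 10.43 in CSE. All 15 supporting cell markers were higher in CSE than in ESCs. Otospheres were lower than CSE in 10 of these 15 and in 6 of 12 hair cell markers. At an unadjusted p under 0.05, 1 supporting cell marker was higher in otospheres. Values are normalized signals on the log2 scale (1 unit is a doubling), on which levels of different probes are not comparable. "Called" means an adjusted p under 0.05 in the limma model of all 9 samples, with Benjamini-Hochberg adjustment over all probes kept.

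Ly6a set the otospheres apart from both other groups, and Cd24a, Bmi1 and Msi2 set the cochlear samples apart from ESCs. Between otospheres and CSE, 1 of the 8 genes was called, Ly6a, which was higher in otospheres, where 11.0% of all probes were called (4.84% higher and 6.19% lower). No gene was called lower, and 1, Msi2, was lower at an unadjusted p under 0.05. Between otospheres and ESCs, 4 genes were called, Msi2, Bmi1, Ly6a and Cd24a, all higher in otospheres, where 27.6% of all probes were called (12.1% higher and 15.6% lower). Between CSE and ESCs, 3 were called, Msi2, Bmi1 and Cd24a, all higher in CSE, where 28.9% of all probes were called (13.2% higher and 15.6% lower). Over all genes, each taken by its main probe like the 8, the shares called were higher. They were 17.4% between otospheres and CSE, 38.8% between otospheres and ESCs and 40.9% between CSE and ESCs. The counts among the 8 genes were near these shares. Cd24a, Bmi1, Msi2 and Ly6a did not overlap between otospheres and ESCs, which was so for 46.2% of all probes, and Cd24a, Bmi1, Msi2 and Msi1 did not between CSE and ESCs (52.2% of all probes). No gene was called lower in either comparison with ESCs, and none was lower there at an unadjusted p under 0.05. The F-test over the 3 groups called the same 4 genes as the comparison of otospheres with ESCs, where it called 33.7% of all probes. The shares for the F-test and for groups without overlap are over probes, not over genes. The median difference over the 8 genes was 0.32 between otospheres and CSE, 1.11 between otospheres and ESCs and 0.54 between CSE and ESCs, against -0.01, -0.01 and -0.02 over the 18565 genes measured. The 3 comparisons share samples and are not independent of each other.

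**Figure D1:**
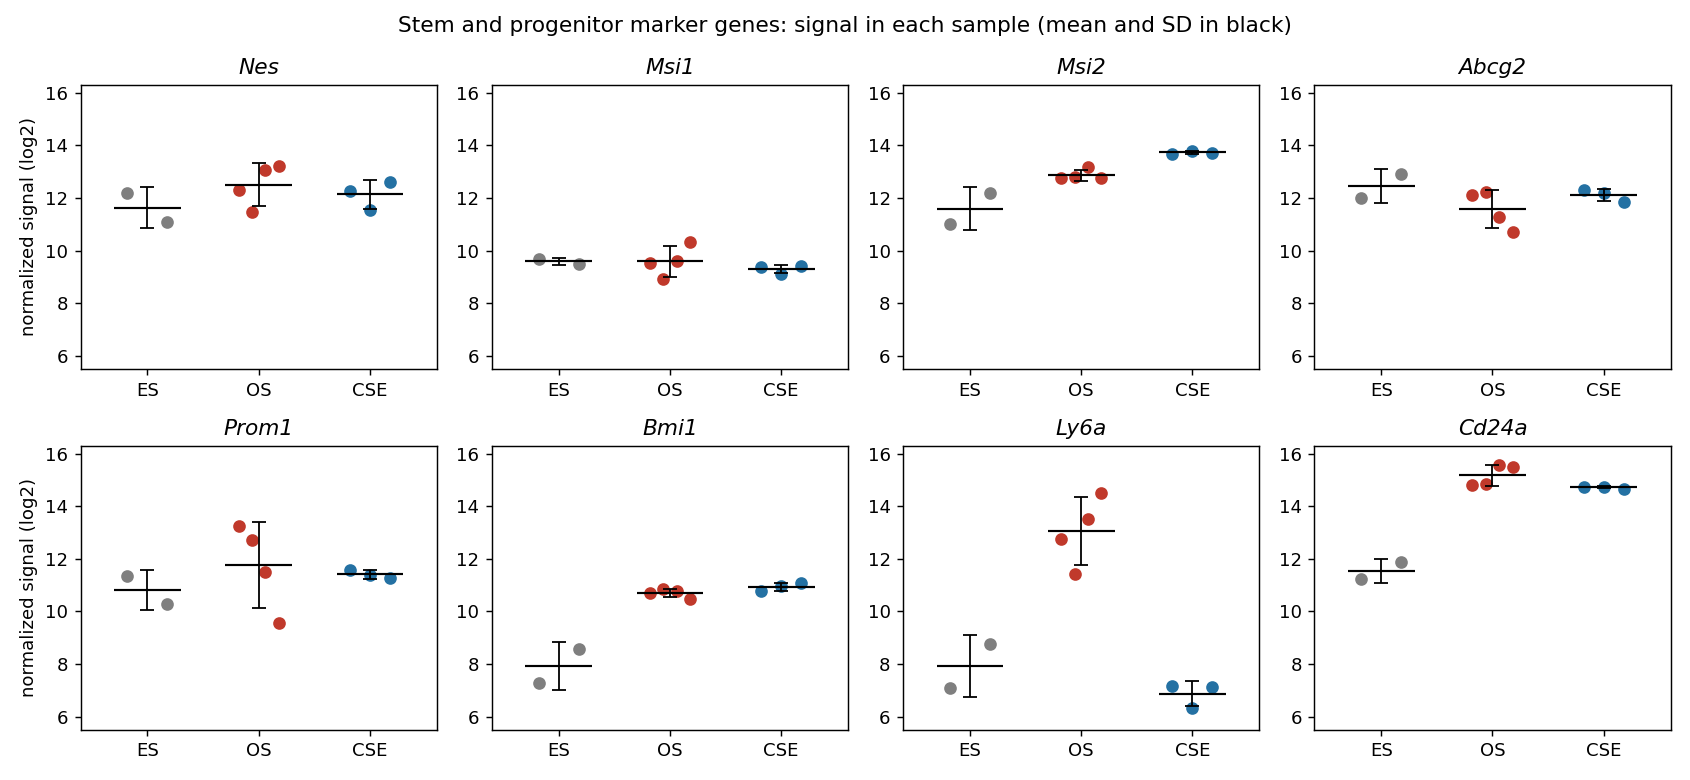
Normalized signal (log2, vertical axis) of the main probe of each of the 8 genes in the 2 ESC (grey), 4 otosphere (red) and 3 CSE (blue) samples, with the mean and SD in black. The otosphere samples of Ly6a lie between 11.44 and 14.49 and the CSE samples between 6.31 and 7.15, while for Bmi1 and Cd24a the ESC samples lie below all others.

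**Figure D2:**
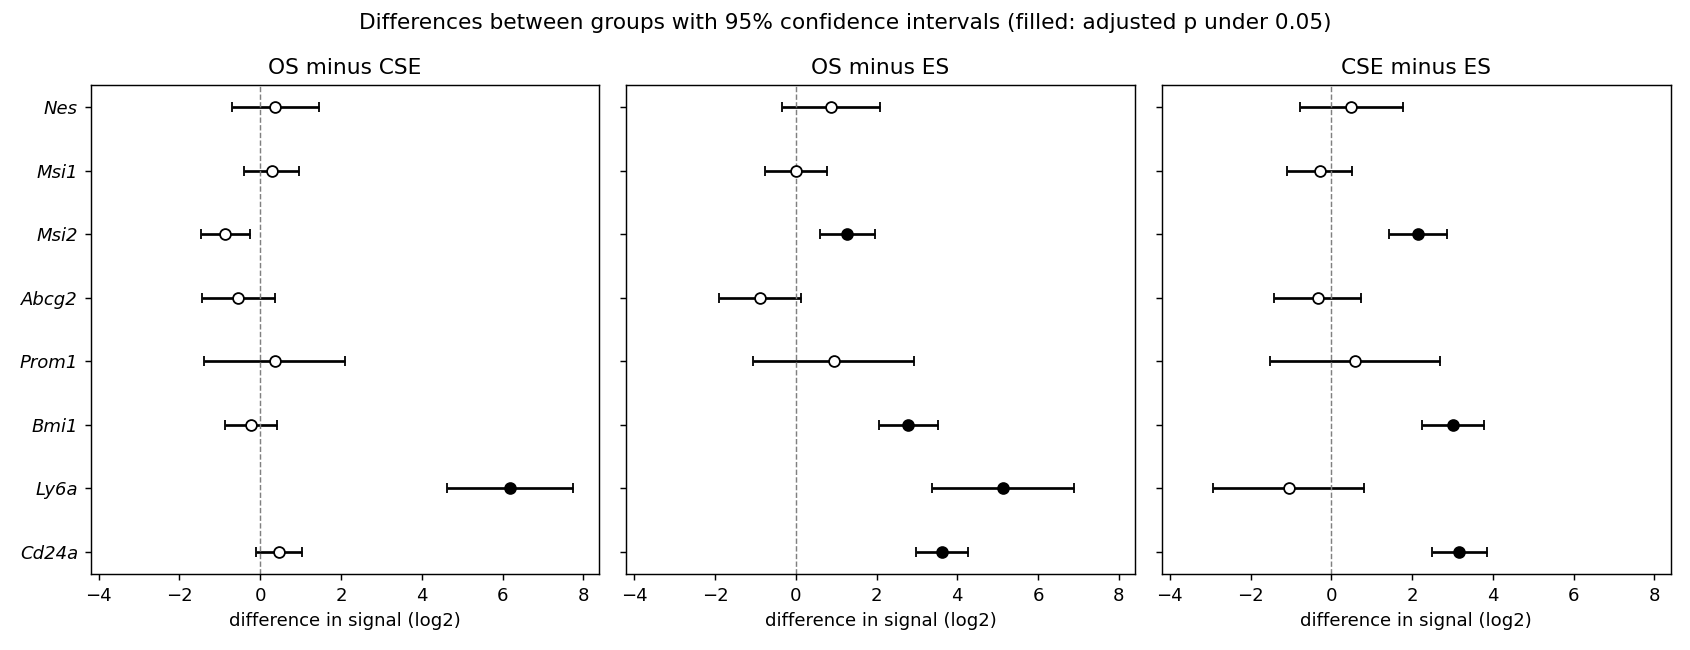
Difference in signal (log2, horizontal axis) between groups for the 8 genes, with 95% confidence intervals from the limma model and filled points for an adjusted p under 0.05. Ly6a is the only filled point of otospheres minus CSE, at 6.19, and Msi2, Bmi1 and Cd24a are filled in both comparisons with ESCs.

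Ly6a, the gene of the surface protein Sca-1, gave the largest difference of the 8. Its signal was 12.77 in OS1 and OS2, 11.44 in OS3, 13.51 in OS4 and OS5 and 14.49 in OS6. In CSE it was 7.15, 6.31 and 7.12, and in ESCs it was 7.08 (ES1) and 8.76 (ES2). Every otosphere sample lay above every other sample, and the probe was well above background on all 11 arrays. Otospheres exceeded CSE by 6.19 ± 0.69 (SE; 95% confidence interval 4.64 to 7.75), a 73.2-fold difference (adjusted p = 0.00082, limma), which was 5.59 among the arrays of slide 1 and 6.72 among those of slide 2. They exceeded ESCs by 5.13 ± 0.78 (35.1-fold, adjusted p = 0.00128). CSE and ESCs did not differ beyond their spread (-1.06, 95% confidence interval -2.92 to 0.80, adjusted p = 0.396). In bulk samples such as these, fewer cells of a type and less RNA per cell cannot be told apart.

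Ly6a is also known as a gene of endothelial cells and as one that interferon raises, and both kinds of marker genes were measured. Of 14 endothelial markers, 10 fell from CSE to otospheres and none rose (none rose at an unadjusted p under 0.05 either). Their mean level, centred on each gene's mean, was -1.50 to -0.69 in otospheres and 0.88 to 1.76 in CSE. Of 16 interferon response genes, 6 rose and none fell (none at an unadjusted p under 0.05), with a mean level of 0.15 to 0.61 in otospheres and -1.30 to -0.71 in CSE. The ESCs had interferon levels of 0.78 and 0.21. Of 12 epithelial markers, 10 rose and none fell (none at an unadjusted p under 0.05), with 0.31 to 1.67 in otospheres and -1.15 to -0.70 in CSE. Over all genes, 17.4% were called between otospheres and CSE, counting both directions. Within the otospheres the epithelial level was 1.18 in OS1 and OS2, 0.31 in OS3, 1.67 in OS4 and OS5 and 1.64 in OS6. In the same order the interferon level was 0.54, 0.61, 0.52 and 0.15, and the endothelial level was -0.69, -0.80, -0.87 and -1.50. In ES1 and ES2 the epithelial level was -0.75 and -1.12 and the endothelial level -0.18 and -0.11. The part of the endothelial, interferon and epithelial genes in the Ly6a result was not tested.

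The Ly6 and uPAR family, to which Ly6a belongs by its fold of cysteine-rich loops, moved in both directions. Of 16 other members measured, 3 rose and 4 fell from CSE to otospheres (median 0.14), where 17.4% of all genes were called. The uPAR gene Plaur, the receptor of the urokinase protease, rose by 5.37 ± 0.49 (SE; adjusted p = 0.000344). Its signal was 9.75 to 12.20 in otospheres and 5.51 to 6.14 in CSE, but 11.20 and 11.21 in ESCs, so that otospheres and ESCs did not differ beyond their spread in Plaur (-0.03, adjusted p = 0.975). Ly6c1, a marker of monocytes and vessels, was 13.42, 12.10, 14.25 and 15.32 in the 4 otosphere samples and 9.01 to 9.96 in CSE (4.16 ± 0.68, adjusted p = 0.0053). Ly6e, a receptor-like protein of many cell types, was 14.80, 14.16, 15.36 and 16.14 in otospheres and 10.85 to 12.19 in CSE (3.75 ± 0.48, adjusted p = 0.00155). The 3 Ly6 genes had the same order over the otosphere samples, lowest in OS3 and highest in OS6. The genes that fell were Lypd1 (-4.31 ± 0.26), Ly6h (-3.73 ± 0.45), Lypd6 (-2.53 ± 0.27) and Slurp1 (-1.19 ± 0.20), of which Lypd1, Ly6h and Lypd6 are known as brain-expressed genes that act on nicotinic receptors.

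Cd24a, the gene of the mucin-like protein CD24 of epithelial, neural and blood precursors, was high in both cochlear groups. Its signal was 14.79 in OS1 and OS2, 14.85 in OS3, 15.55 in OS4 and OS5 and 15.50 in OS6. It was 14.73, 14.75 and 14.67 in CSE and 11.23 and 11.87 in ESCs. All 7 cochlear samples lay above both ESC samples, and the 4 otosphere samples lay just above the 3 CSE samples without overlap. Otospheres exceeded ESCs by 3.63 ± 0.28 (SE; 12.3-fold, adjusted p = 4.18e-05) and CSE exceeded ESCs by 3.17 ± 0.30 (9.0-fold, adjusted p = 0.000111). The difference between otospheres and CSE was 0.46 (95% confidence interval -0.11 to 1.03) and did not pass the test (adjusted p = 0.356). It was 0.07 on slide 1 and 0.86 on slide 2. Cd24a, Msi2 and Ly6a were the 3 genes whose otosphere and CSE samples did not overlap, which was so for 23.4% of all probes.

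CD24 is also found on young red blood cells, and of 9 erythroid markers measured, 5 fell from CSE to otospheres and none rose (none at an unadjusted p under 0.05), with mean levels of -1.81 to -1.51 in otospheres and 2.52 to 2.98 in CSE. The erythroid level of ESCs, where Cd24a was low, was -0.54 and -1.07. The part of these cells in the Cd24a signal was not tested. Of 6 genes of CD24 ligands and related sialomucins, none was called between otospheres and CSE, and at an unadjusted p under 0.05 1 was higher and 2 were lower (median -0.01). Over all genes, 17.4% were called in this comparison, counting both directions.

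Bmi1, the polycomb gene, was also higher in both cochlear groups than in ESCs. Its signal was 10.68 in OS1 and OS2, 10.86 in OS3, 10.77 in OS4 and OS5 and 10.48 in OS6. It was 10.76, 10.96 and 11.07 in CSE and 7.26 and 8.56 in ESCs. The otosphere and CSE samples overlapped, and both ESC samples lay below all of them. Otospheres exceeded ESCs by 2.79 ± 0.32 (SE; 6.91-fold, adjusted p = 0.000305) and CSE exceeded them by 3.02 ± 0.34 (8.12-fold, adjusted p = 0.000262). Otospheres and CSE did not differ beyond their spread (-0.23, 95% confidence interval -0.87 to 0.41, adjusted p = 0.762). The second probe of Bmi1, on the same arrays, gave 3.47 against ESCs for otospheres, 3.79 for CSE and -0.32 between the cochlear groups, with the same calls.

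Msi2 was higher in both cochlear groups than in ESCs, and its signal in CSE lay above that in otospheres. Its main probe gave 13.69, 13.79 and 13.72 in CSE. In otospheres it gave 12.76 in OS1 and OS2, 12.79 in OS3, 13.19 in OS4 and OS5 and 12.75 in OS6, and in ESCs 11.01 and 12.18. The 3 groups did not overlap, in the order CSE, otospheres, ESCs. CSE exceeded ESCs by 2.14 ± 0.32 (SE; 4.40-fold, adjusted p = 0.00114) and otospheres exceeded ESCs by 1.28 ± 0.30 (2.42-fold, adjusted p = 0.0121). The latter rested on ES1, the lower of the ESC lines. Without ES1 it was 0.69 and without ES2 it was 1.86, each against a single ESC array. Otospheres were 0.86 below CSE (-0.86, 95% confidence interval -1.46 to -0.26), which missed the threshold with an adjusted p of 0.0774. That difference was called with otospheres and CSE fitted alone (adjusted p = 0.012, limma). Leaving out either ESC line gave the same fit of it, since a single ESC array adds no spread. It was also called with slide as a block (adjusted p = 0.0487) and with every array as a sample (adjusted p = 0.031). The last setting counts the averaged pairs of otosphere arrays as separate samples. Of 22 alternatives, the other probe included, 5 called the difference between otospheres and CSE. Among those that did not were scaling to the 75th percentile (-0.55, adjusted p = 0.495, limma) and no moderation of the variance (adjusted p = 0.146).

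The second Msi2 probe, made for another RefSeq transcript of the gene, was dimmer, with 5.70 to 6.02 in otospheres, 6.09 to 6.71 in CSE and 5.32 and 7.13 in ESCs. It was well above background on 1 of the 2 ESC arrays and on all others. No comparison was called with it, and it gave -0.35 for otospheres minus ESCs, 0.12 for CSE minus ESCs and -0.47 for otospheres minus CSE.

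Bmi1 and Msi2 were both called higher in otospheres and in CSE than in ESCs. Over the 9 samples, which share groups and slides, Pearson's r between them was 0.908, and it was 0.904 after the group means had been taken out. The latter was carried by the 2 ESC lines, since it was 0.364 over the 7 otosphere and CSE samples alone. The promoters are shown because both genes separated the cochlear groups from ESCs, as the 250 bases before the outermost RefSeq start in build GRCm38.p6, 5' to 3' on the gene's strand. Capitals mark the GC box GGGCGG, the CCAAT box CCAAT and the canonical E-box CACGTG, searched on both strands with overlapping matches counted.
Bmi1, chr2:18676768-18677017, + strand: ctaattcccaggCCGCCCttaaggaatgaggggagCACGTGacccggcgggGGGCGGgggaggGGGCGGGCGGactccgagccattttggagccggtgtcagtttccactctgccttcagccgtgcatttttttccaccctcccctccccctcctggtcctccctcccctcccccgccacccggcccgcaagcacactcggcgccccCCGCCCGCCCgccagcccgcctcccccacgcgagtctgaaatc
Msi2, chr11:88718278-88718527, - strand: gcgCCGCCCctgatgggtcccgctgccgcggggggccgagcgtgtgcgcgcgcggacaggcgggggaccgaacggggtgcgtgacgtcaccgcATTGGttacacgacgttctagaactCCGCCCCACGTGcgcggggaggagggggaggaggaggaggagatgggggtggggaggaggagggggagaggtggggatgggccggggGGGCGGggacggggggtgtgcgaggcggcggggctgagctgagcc
The Bmi1 sequence held 6 GC boxes and 1 E-box, and the Msi2 sequence held 3 GC boxes, 1 CCAAT box and 1 E-box, which directly follows a GC box. Of 27025 promoters of the same length, 1 to a gene, 33% held a GC box, 34.5% a CCAAT box and 6.04% this E-box. The Bmi1 and Msi2 sequences had 21 and 29 CpG dinucleotides, against a median of 6 over all promoters. Of the other genes with an entry, Nes had 2 GC boxes and 15 CpG, Prom1 had 1 GC box, 1 CCAAT box and 9 CpG, and Abcg2 had none of the 3 motifs and 3 CpG. A match is a description of these letters and no evidence of binding. Promoters of Msi1, Ly6a and Cd24a were not analysed here.

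Of 19 genes of polycomb repressive complex 1 other than Bmi1, 2 rose and 2 fell from CSE to otospheres (median -0.10). This was 21.1% of the list, near the 17.4% called over all genes. Pcgf5 and Pcgf3, whose proteins take the place of the Bmi1 protein in other forms of the complex, rose by 1.07 ± 0.25 (SE; adjusted p = 0.0284) and 0.73 ± 0.17 (adjusted p = 0.0253). Kdm2b, which brings such a form to CpG islands, changed by -1.24 ± 0.21 (adjusted p = 0.00623), and Cbx2, which binds the histone mark of polycomb, by -1.01 ± 0.23 (adjusted p = 0.0218). Ring1, the ubiquitin ligase that pairs with the Bmi1 protein, was 7.72 to 8.85 in otospheres and 8.07 to 8.96 in CSE and was not called (-0.14, adjusted p = 0.904). Of 10 genes of polycomb repressive complex 2, which writes that mark, 1 (10.0%) rose and none fell (none at an unadjusted p under 0.05), and it was the cofactor gene Aebp2 (2.26 ± 0.57, adjusted p = 0.0361).

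The Ink4 and Arf locus, a known target of Bmi1, was measured beside it. Cdkn2b, which encodes the kinase inhibitor p15, was 12.86, 12.97, 11.75 and 11.12 in the 4 otosphere samples, 6.53 to 7.53 in CSE and 10.00 and 8.23 in ESCs. It rose from CSE to otospheres by 5.15 ± 0.56 (SE; adjusted p = 0.000737). Cdkn2a, which encodes p16 and Arf, was 11.88 in OS1 and OS2 and 12.15 in OS3 but 8.29 in OS4 and OS5 and 5.96 in OS6, against 5.10 to 5.67 in CSE and 11.32 and 10.76 in ESCs. All 4 otosphere samples lay above CSE, yet the difference missed the threshold (4.09 ± 1.35, adjusted p = 0.0977). The CSE values of Cdkn2a lay near the negative controls, whose 95th percentile was 5.00 to 5.10 on the CSE arrays. The range of Bmi1 over the same 4 otosphere samples was 0.38. The part of Bmi1 in the levels of this locus was not tested.

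Prom1 and Abcg2, the genes of CD133 and of the dye pump, were not called in any comparison, and both split the otospheres by slide. The main probe of Prom1 gave 13.25 in OS1 and OS2, 12.73 in OS3, 11.51 in OS4 and OS5 and 9.55 in OS6. CSE gave 11.59, 11.37 and 11.26 and ESCs gave 11.35 and 10.29. The otosphere samples lay on both sides of the CSE samples, above them on slide 1 and around or below them on slide 2. Otospheres minus CSE was 0.35 (95% confidence interval -1.40 to 2.11, adjusted p = 0.892), with 1.60 within slide 1 and -0.40 within slide 2. Against ESCs, otospheres differed by 0.94 (adjusted p = 0.488) and CSE by 0.58 (adjusted p = 0.703). Without OS6 the difference of otospheres from ESCs was 1.68 and was called (adjusted p = 0.0455), and without OS1 and OS2 that of otospheres from CSE was -0.14.

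The second probe of Prom1, made for another transcript, gave 9.43, 7.77, 7.22 and 5.75 in the otosphere samples, in the same order as the main probe, with 6.55 to 7.52 in CSE and 7.99 and 6.81 in ESCs. It was not called in any comparison. The related gene Prom2, an epithelial prominin, was higher in otospheres. It was 7.91, 7.43, 9.41 and 9.11 there and 6.29 to 6.96 in CSE (1.80 ± 0.48, SE; adjusted p = 0.047), so that its order over the slides was the opposite of that of Prom1. Of 6 genes of prominins and membrane protrusions, 3 (50.0%, against 17.4% of all genes) rose and none fell (none at an unadjusted p under 0.05), the others that rose being Msn (2.06 ± 0.20, adjusted p = 0.000406) and Ezr (1.30 ± 0.33, adjusted p = 0.0374), whose proteins tie the membrane to actin.

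Abcg2 gave 12.12 in OS1 and OS2, 12.23 in OS3, 11.26 in OS4 and OS5 and 10.69 in OS6. It gave 12.29, 12.21 and 11.85 in CSE and 12.00 and 12.91 in ESCs. The otospheres of slide 1 lay among the CSE and ESC samples and those of slide 2 lay below all of them. Otospheres minus CSE was -0.54 (95% confidence interval -1.44 to 0.36, adjusted p = 0.532), otospheres minus ESCs -0.88 (adjusted p = 0.19) and CSE minus ESCs -0.34 (adjusted p = 0.659). Within slides, otospheres minus ESCs was 0.15 on slide 1 and -1.84 on slide 2. Of 11 other ABC transporters measured, not all of them drug pumps, 2 rose and 2 fell from CSE to otospheres (median 0.31), or 36.4% against 17.4% of all genes called. Abcc3 (2.33 ± 0.32, adjusted p = 0.00238) and Abcc1 (1.08 ± 0.26, adjusted p = 0.03), which export conjugated compounds, rose, and the sterol transporter genes Abcg1 (-2.71 ± 0.56, adjusted p = 0.0156) and Abcg4 (-2.53 ± 0.42, adjusted p = 0.0053) fell. The genes of P-glycoprotein, which like Abcg2 clears dyes, were not called between the cochlear groups, with -0.53 for Abcb1a (adjusted p = 0.713) and 1.14 for Abcb1b (adjusted p = 0.236). Abcb1b was 10.22 and 10.17 in ESCs and was lower in otospheres (-3.35, adjusted p = 0.00266) and in CSE (-4.50, adjusted p = 0.000743).

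Nes was well above background in all samples and was not called in any comparison. Its signal was 12.30 in OS1 and OS2, 11.47 in OS3, 13.08 in OS4 and OS5 and 13.20 in OS6. It was 12.27, 11.53 and 12.61 in CSE and 12.18 and 11.09 in ESCs. The groups overlapped, OS3 being the lowest otosphere sample. Otospheres minus CSE was 0.38 (95% confidence interval -0.70 to 1.45, adjusted p = 0.774), otospheres minus ESCs 0.88 (-0.34 to 2.10, adjusted p = 0.278) and CSE minus ESCs 0.50 (-0.79 to 1.78, adjusted p = 0.58). The intervals do not exclude a difference of 1 unit. Within slides, otospheres minus ESCs was -0.16 on slide 1 and 2.03 on slide 2, each against 1 ESC line.

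Of 9 neural and muscle filament genes, none rose and 6 fell from CSE to otospheres (median -3.16; none rose at an unadjusted p under 0.05), against 17.4% of all genes called in either direction. The largest falls were those of the neurofilament genes Nefh (-5.89 ± 0.42, SE; adjusted p = 0.000111), Nefl (-5.54 ± 0.57, adjusted p = 0.000567) and Nefm (-4.71 ± 0.55, adjusted p = 0.00107), which are genes of mature neurons. The neuron markers fell with them (9 of 11, none rose, also at an unadjusted p under 0.05), with mean levels of -1.83 to -1.37 in otospheres and 1.45 to 2.43 in CSE, and Nefl, Nefm and Prph are in both lists. Vim, whose protein vimentin pairs with nestin, was 14.28 to 15.44 in otospheres and 14.95 to 15.36 in CSE and was not called (-0.29, adjusted p = 0.703). Of 12 neural progenitor markers, none rose (none at an unadjusted p under 0.05), 9 were not called and 3 (25.0%) fell, the Notch target Hes5 (-7.44 ± 0.38, adjusted p = 2.52e-05), the glial fatty acid binding protein gene Fabp7 (-6.94 ± 0.63, adjusted p = 0.000313) and the transcription factor gene Sox2 (-2.79 ± 0.27, adjusted p = 0.000448). Sox2 was 7.71 to 8.80 in otospheres, 10.93 to 11.28 in CSE and 12.77 and 12.59 in ESCs. Glial markers, of which Fabp7 is one, were lower in otospheres as well (6 of 10 fell and 1 rose).

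Msi1 was not called in any comparison, and its 3 group means lay within 0.29 of each other. Its main probe gave 9.52 in OS1 and OS2, 8.90 in OS3, 9.59 in OS4 and OS5 and 10.34 in OS6. It gave 9.38, 9.12 and 9.41 in CSE and 9.68 and 9.50 in ESCs. Otospheres spanned both other groups. The differences were 0.28 between otospheres and CSE (95% confidence interval -0.39 to 0.96, adjusted p = 0.708), -0.002 between otospheres and ESCs (adjusted p = 0.998) and -0.29 between CSE and ESCs (adjusted p = 0.618). The second, dimmer probe gave 5.76 to 6.74 in otospheres, 6.82 to 7.18 in CSE and 6.29 and 6.15 in ESCs. It turned the sign of otospheres minus CSE to -0.69 (adjusted p = 0.122) and of CSE minus ESCs to 0.78 (adjusted p = 0.0779), so that the direction of Msi1 depended on the probe.

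**Figure D3:**
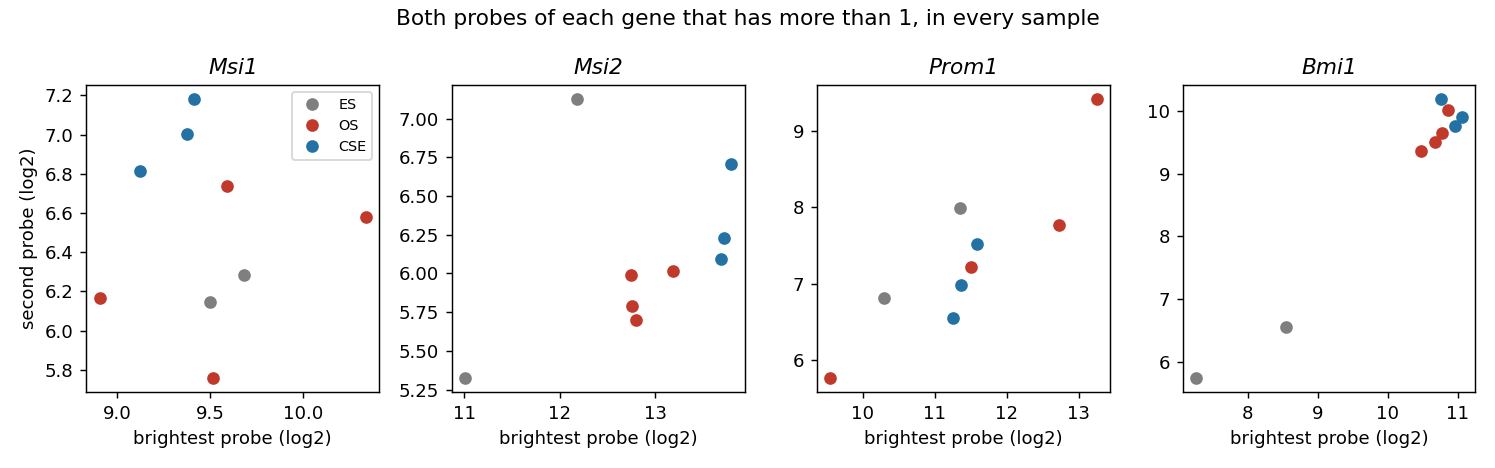
Signal (log2) of the second probe (vertical axis) against the brightest probe (horizontal axis) of the 4 genes with 2 probes, in the 2 ESC (grey), 4 otosphere (red) and 3 CSE (blue) samples; each panel has its own scales. Both probes of Bmi1 put the ESC samples below all others and both of Prom1 order the otospheres alike, whereas those of Msi1 and Msi2 order the groups differently.

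Among 10 partners and targets of the Musashi proteins, 1 rose and 2 fell from CSE to otospheres (median 0.004), or 30.0% against 17.4% of all genes called. The target Numb, an inhibitor of Notch, was 7.85 to 8.78 in otospheres and 7.61 to 7.82 in CSE and was not called (0.46, adjusted p = 0.297). Cdkn1a, which encodes the kinase inhibitor p21, rose by 2.29 ± 0.50 (SE; adjusted p = 0.02). The Notch ligand gene Jag1, a marker of the prosensory region, changed by -2.70 ± 0.21 (adjusted p = 0.000157), and Lin28b, which encodes an inhibitor of let-7 miRNAs, by -2.67 ± 0.53 (adjusted p = 0.0128).

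Of 18 surface markers used to sort other stem cells, 4 rose and 1 fell from CSE to otospheres (median 0.22), or 27.8% against 17.4% of all genes called. Among them, Thy1 rose by 3.14 ± 0.55 (SE; adjusted p = 0.00721), the integrin gene Itgb1 by 1.22 ± 0.25 (adjusted p = 0.0138) and the epithelial gene Epcam by 0.89 ± 0.24 (adjusted p = 0.0445). Kit, the receptor of stem cell factor, changed by -2.10 ± 0.49 (adjusted p = 0.0275).

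**Figure D4:**
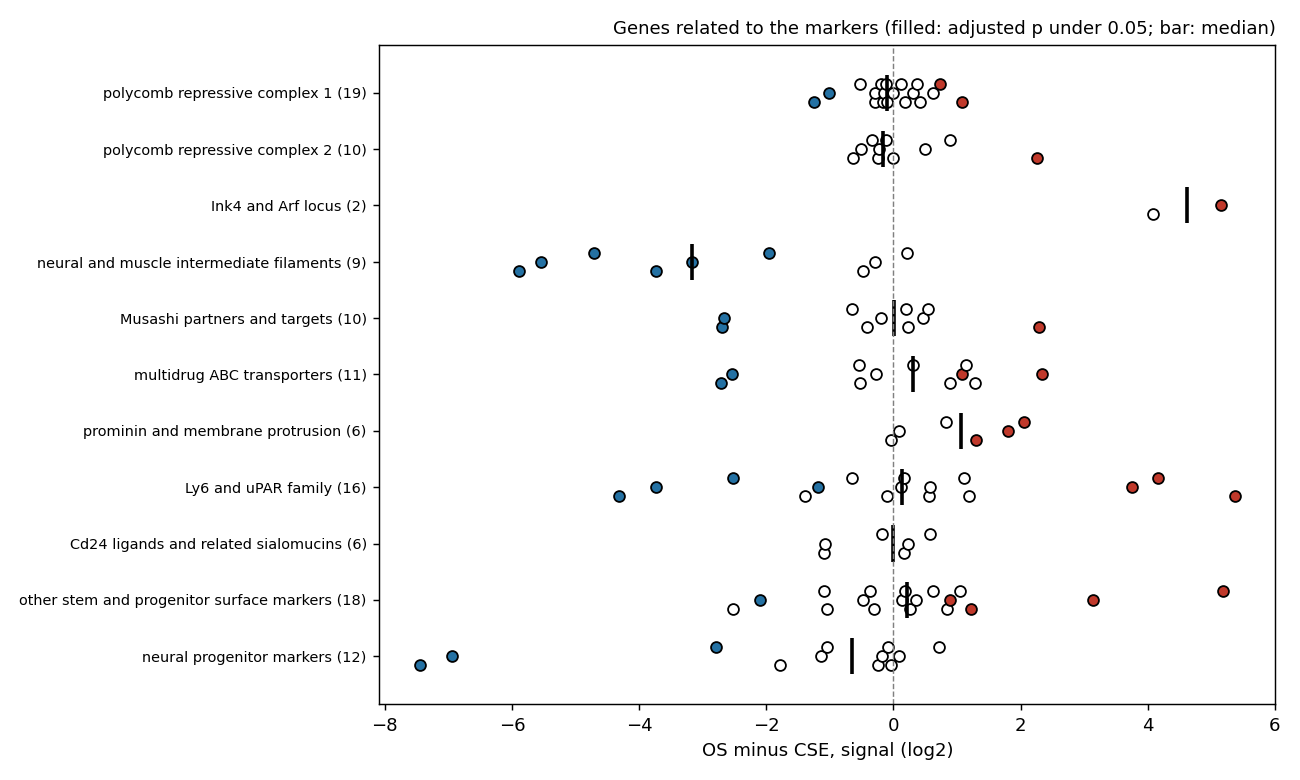
Difference in signal between otospheres and CSE (log2, horizontal axis) of the genes related to the 8 markers, by list with the number measured in brackets; each point is a gene, filled in red (higher) or blue (lower) where the adjusted p was under 0.05, and the bar is the list's median. Plaur at 5.37 lies far to the right, and Hes5 at -7.44 and Fabp7 at -6.94 far to the left.

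The otosphere samples differed among themselves more for some of the 8 genes than for others. The range over the 4 samples was 3.70 for Prom1 and 3.06 for Ly6a, wider than in 98.2% and 97% of all genes. It was 1.73 for Nes, 1.54 for Abcg2 and 1.43 for Msi1, and 0.76 for Cd24a, 0.44 for Msi2 and 0.38 for Bmi1, against a median of 0.64 over all genes. In Prom1 and Abcg2 the otospheres of slide 2 lay below those of slide 1, by -2.46 and -1.20 in the mean. In Ly6a (1.90), Nes (1.26), Msi1 (0.75) and Cd24a (0.71) they lay above. In these 6 genes the 2 samples of one slide did not overlap those of the other, which was so for 54.0% of all genes, and in Msi2 and Bmi1 they did. With 2 samples on each side no test was made, and slide and preparation cannot be told apart. The CSE samples differed between the slides by -0.22 for Prom1, -0.40 for Abcg2, 0.38 for Ly6a and 0.70 for Nes. The ESC lines, 1 on each slide, differed by -1.06 for Prom1, 0.91 for Abcg2, 1.68 for Ly6a and -1.09 for Nes. The levels of other marker genes also moved with the slide among the otospheres. Mesenchyme markers had mean levels of 1.31 (OS1 and OS2), 1.91 (OS3), 0.10 (OS4 and OS5) and -2.21 (OS6). Proliferation markers had 0.88, -0.29, -1.13 and -2.61 in the same samples. Hair cell markers went the other way, with -0.68, -1.21, 0.41 and 0.97. The study also reports raised hair cell markers in OS4 to OS6. The part of these genes in the spread of Prom1, Abcg2 and Ly6a was not tested.

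**Figure D5:**
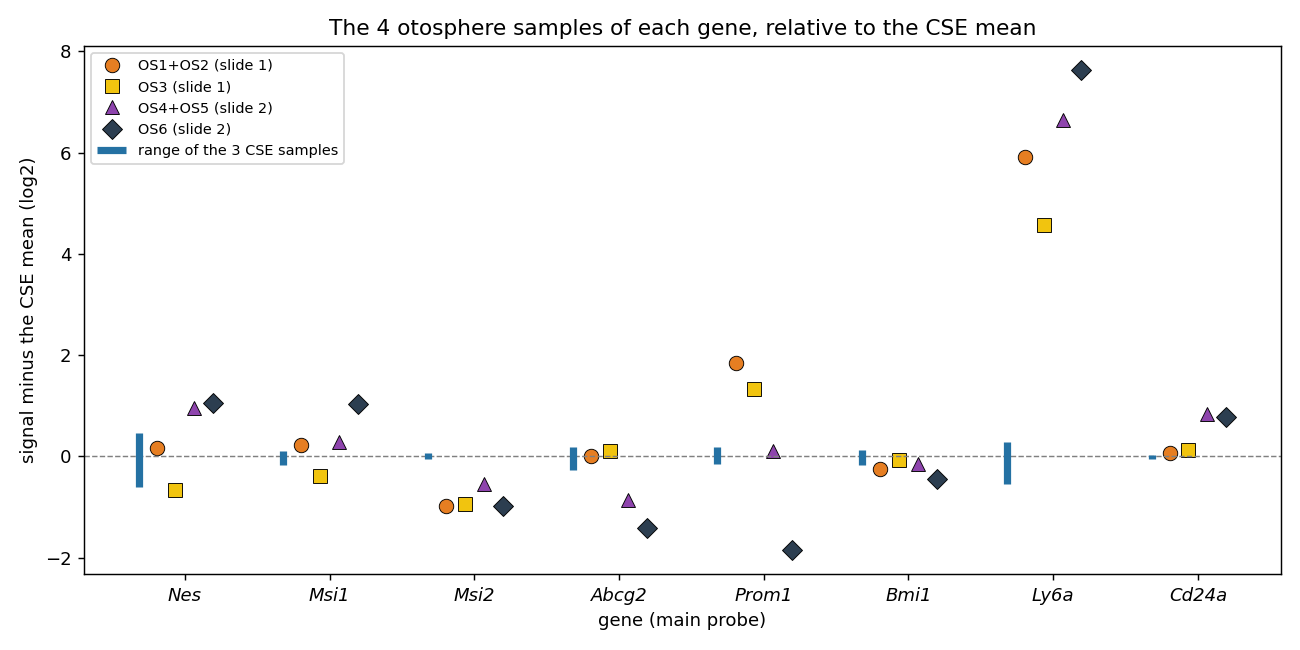
Signal of each otosphere sample minus the CSE mean (log2, vertical axis) for the main probe of the 8 genes, with the range of the 3 CSE samples as a blue bar. Prom1 spreads over 3.70 units, from OS1 and OS2 at the top to OS6 at the bottom, whereas Bmi1 spreads over 0.38.

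For each gene the genes with the most alike pattern were sought among 14413 that varied by at least 1 unit over the 9 samples, by Pearson's r. Bmi1 was matched by Snx24 (r = 0.996) and Syap1 (0.993), among others. Cd24a was matched by Dctn4 (0.996), Adam10 (0.994) and Pex2 (0.994), and Ly6a by Mfap3l (0.992), Osgin1 (0.988) and Ptgs2 (0.987), the last the gene of cyclooxygenase 2. These r are descriptions over samples that share groups and slides. Msi2 was matched by Pgm2l1 (0.986), Iftap (0.986) and Zfp711 (0.985), and Prom1 by Abhd15 (0.973), Cpm (0.962) and Reg3a (0.960). Nes was matched by Ppp1r14d (0.972), Cdc42ep3 (0.964) and Pex16 (0.962), Msi1 by Trex2 (0.990), Olfr124 (0.974) and Apol9a (0.939), and Abcg2 by Cgas (0.935), Tra2a (0.930) and Gap43 (0.927). None of the 8 genes was among the 3 most alike of another.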

How the data were processed

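Total RNA of 11 samples had been labelled with Cy3 and hybridized to single-colour arrays. The deposited scanner files give, per spot, a median intensity with the median of the background around it, made with Feature Extraction (10.7.3.1 in the file header that was read). They also give a processed intensity that the same software had corrected for background. A log2 table was deposited too, background-corrected, quantile-normalized and filtered by the authors, which served as an alternative. Median intensities were corrected in limma 3.58.1 (R 4.3.3; normexp, offset 16), converted to log2 and quantile-normalized over all arrays. Spots with an outlier flag and control spots were left out, and spots of a probe were averaged. A probe was kept where, on 2 or more arrays, it was 10% brighter than the 95th percentile over the 308 negative controls. Accessions were named through the RefSeq gene table of GRCm38.p6, which named 26762 of 55681 probes. Promoters came from RefSeq (GRCm38.p6), where 5 of the 8 genes had an entry. The model had a mean for each group (lmFit, eBayes), was checked on simulated data, and had no covariate. The 8 genes, the related lists and the marker lists were chosen with earlier results of these data known.

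Genes named were the 8 markers with every probe, 9 related genes whatever their value (Numb, Cdkn2a, Abcb1a, Abcb1b, Prom2, Ly6c1, Ly6e, Vim and Ring1), in each related list up to 3 called genes with the largest rise and the largest fall, and the 3 genes most alike in pattern. Slurp1, Epcam, Nanog and the samples' Plaur and Sox2 values were added after their values had been seen. A few genes that the rule would name are not reported here. The methods' filter asks for 3 arrays, and 2 were used since the ESC group holds 2. Alternatives were 2 offsets, scaling of the processed intensity to its 75th percentile, the log2 table, 2 filters, outlier spots kept, every array as a sample, slide or replicate number as a block, each sample left out, 2 groups fitted alone, no moderation of the variance, and each slide alone. Groups and numbers came from the sample titles. The number of arrays limits the precision.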

Additional observations from a re-analysis of the deposited data

Results flagged for a closer look

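Among the 4 otosphere samples, the Msi2 main probe in OS4 and OS5 (13.19) stood apart from the other 3 (12.75 to 12.79). The gap to the nearest sample was 0.897 of the whole range of the group, above Dixon's 95% critical value for 4 samples. Of the 12 probes tested in this way, it was 1, and chance flags about 1 group in 20. Without OS4 and OS5 the Msi2 difference between otospheres and CSE was -0.97 (adjusted p = 0.0956).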

How the results depend on the processing

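The 8 called differences of single genes kept direction and call in 167 of 172 values under the alternatives, and the 16 differences not called did so in 322 of 344. Ly6a, Bmi1 and Cd24a kept each of their calls under every alternative that gave a test, with 5.47 to 6.73 for Ly6a between otospheres and CSE. Each slide alone gave differences without a test. There Bmi1 in otospheres against ESCs was 3.48 on slide 1 and 2.12 on slide 2. The number of genes called between otospheres and CSE went from 1 to 2 with every array as a sample, with slide as a block and with these 2 groups alone, in each case by Msi2. Leaving out ES1 or ES2 gave the same fit of this comparison as the 2 groups alone. The number stayed at 1 with any otosphere or CSE sample left out. Msi2 in otospheres against ESCs lost its call when scaled to the 75th percentile (0.94), was 0.69 without ES1, and turned to -0.35 with its other probe. The cause was not tested. That scaling also moved the median of all probes to -0.31 for otospheres minus ESCs and -0.28 for CSE minus ESCs, and the values under it are relative to that.

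Directions that turned belonged, besides that Msi2 value, to differences not called. With the other probe, Msi1 gave 0.78 (CSE minus ESCs), -0.69 (otospheres minus CSE) and 0.094 (otospheres minus ESCs), and Prom1 gave -0.39 (CSE minus ESCs). Msi1 between otospheres and ESCs was 0.0017 at an offset of 50 and ranged from -0.252 to 0.226 with samples left out. Nes between CSE and ESCs was -0.10 under the scaling and -0.047 to 1.05 with samples left out, Abcg2 between the same groups ranged from -0.80 to 0.11, and Prom1 between otospheres and CSE from -0.14 to 1.09.

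Same-numbered samples deviated with correlations of -0.393 to 0.357. Samples of different numbers were not compared in this way, so these values cannot tell whether the numbers pair the samples. With the replicate number as a block and every array a sample, 2 genes were called between otospheres and CSE, Ly6a and Prom1 (1.67), Prom1 was called against ESCs (2.38), Msi2 against ESCs was not (1.17), and Nes (-0.11) and Abcg2 (0.036) turned between otospheres and CSE. The block gave 4554 calls over all probes in that comparison, against 5292.

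That count was 7941 with every array as a sample, 3456 without OS4 and OS5, 2939 without CSE1 and 3215 without CSE3. Ly6a stayed called without each of them.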
